A study of Sus scrofa with 12 samples.

Results

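The microRNAs (miRNAs) encoded inside the HOX gene clusters, miR-10a, miR-10b, miR-196a, miR-196b and miR-615, were measured in uteri of newborn and 50 h old gilts, which are female piglets. All rows with 1 of these names and any arm suffix were taken from a table of miRNA signals, 1 row for each miRNA and precursor. They include ssc-miR-10a-5p, ssc-miR-10b, ssc-miR-196a and ssc-miR-196b-5p, in which the prefix ssc stands for pig. This gave 11 of the table's 420 rows and 7 of its 362 names: 3 rows of miR-10, 6 of miR-196 and 2 of miR-615. Small RNA of 12 uteri, 1 library per animal, had been sequenced in 3 groups of 4 crossbred gilts (Landrace, Yorkshire, Duroc and Hampshire). PND2N gilts had nursed freely and PND2R gilts had been given a commercial milk replacer, both for 48 h, with uteri taken at 50 h of age. Uteri of PND0 gilts were collected at most 1 h after birth, before any feeding. PND2N against PND2R addressed nursing at 1 age, and each of them against PND0 addressed age, where age and having been fed cannot be told apart. The whole uterus was used, so that fewer cells of a type and less RNA per cell cannot be told apart.

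HOX genes encode transcription factors that give cells their position along the body axis, and in the female reproductive tract they pattern oviduct, uterus and cervix. The miRNAs lie between the HOX genes, are often transcribed with them, and in vertebrates repress several HOX mRNAs. miR-10a and miR-10b are near-identical copies from the HOXB and HOXD clusters, miR-196a comes from 2 genes in HOXB and HOXC, miR-196b from HOXA and miR-615 from HOXC. miR-196 is best known for repressing HOXB8 in mouse limb development, and miR-10b for its part in cell migration in human tumours. In the RefSeq gene table of the pig assembly Sscrofa11.1, 5 miRNA genes matched these names, none of them for miR-196b. MIR10A stood between HOXB3 and HOXB5 in gene order and MIR10B next to HOXD3. MIR196A-1 followed HOXB8, MIR196A-2 stood between HOXC10 and HOXC9, and MIR615 between HOXC5 and HOXC4.

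The libraries differed widely in depth. The low values in each library were whole multiples of 1 step, which gave the number of reads behind each value and totals of 37462 to 12159233 miRNA reads. Levels are given as rpm, the reads of a row for every 1000000 miRNA reads of its library. The library totals were summed over all 420 rows, so reads held in copied rows count more than once in them. Over 1000000 reads were present in PND2N replicates 1 and 3, PND2R replicate 4 and PND0 replicates 2 and 3. Under 100000 were present in PND2N replicate 2 and PND2R replicates 1 to 3, where 1 read is worth 13.4 to 26.7 rpm. Intervals on single libraries are 95% Wilson intervals and cover counting error only. Of the miRNAs that mark uterine cell types, the smooth muscle miR-143-3p stood at 169353 ± 48288 rpm, the endothelial miR-126-3p at 11707 ± 1898 rpm and the epithelial miR-205 at 643 ± 223 rpm (SD, n = 12). The mesenchymal miR-199a-3p stood at 43165 ± 7694 rpm and the striated muscle miR-1 at 2804 ± 773 rpm. The red cell miR-451 stood at 258 ± 117 rpm and the leukocyte miR-150 at 55.9 ± 19.1 rpm (SD, n = 12 each). No row of 7 such marker lists (smooth muscle, mesenchyme, epithelium, endothelium, red cell, leukocyte, striated muscle) passed the limma test in any comparison. The same held for all 268 rows tested (0%), so this does not show that the cell types were alike between groups.

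miR-10b was the most abundant miRNA of the group and held rank 3 to 6 among all names in every library. It averaged 53212 ± 10711 rpm in PND2N, 42679 ± 8074 rpm in PND2R and 45573 ± 10759 rpm in PND0 (SD, n = 4 each). Among names ranked by mean level, miR-10a-5p was number 22, miR-196b-5p number 35, miR-196a number 84 and miR-10a-3p, the less abundant arm of the miR-10a hairpin, number 121. miR-615 was number 179, and miR-196b-3p had at most 14 reads in any library. The order miR-10b, miR-10a-5p, miR-196b-5p and miR-196a was the same in all 12 libraries. Lower in the order neighbours met: the less abundant row of miR-196a and miR-10a-3p both had 66.8 rpm in PND2R replicate 1, and miR-10a-3p and miR-615 both had 26.7 rpm, 1 read, in PND2N replicate 2. Read shares of different miRNAs also carry the efficiency with which each sequence enters a library, which was not measured.

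Together the miR-10 rows took 6.16% ± 1.12 of miRNA reads in PND2N, 4.89% ± 0.889 in PND2R and 5.39% ± 1.21 in PND0 (SD, n = 4 each). By library the share was 7.16%, 5.30%, 7.09% and 5.09% in PND2N, 4.65%, 4.93%, 3.92% and 6.06% in PND2R, and 4.71%, 5.72%, 6.94% and 4.20% in PND0, in replicate order. The 3 groups overlapped, and PND2R replicate 4 stood above the other 3 of its group. The miR-196 names, each counted once by its more abundant row, took 0.293% ± 0.118 in PND2N, 0.339% ± 0.0397 in PND2R and 0.366% ± 0.0808 in PND0. Their lowest share was 0.147%, in PND2N replicate 2, and their highest 0.476%, in PND0 replicate 2. With all precursor rows summed the miR-196 shares were 0.568% ± 0.224, 0.667% ± 0.0767 and 0.711% ± 0.161 in the same order of groups, a sum in which the reads of miR-196b stand in 2 rows.

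Several rows are copies. Both rows of miR-196b-5p held the same reads in 12 of 12 libraries, and so did both rows of miR-196b-3p, so that each pair is 1 measurement. The 2 rows of miR-615 differed by at most 1 read. The 2 rows of miR-196a, MI0002457 and MI0022138 in the table, were not equal in any library: over all libraries they held 18584 and 7529 reads, and MI0002457 is the more abundant row in each. The ratio of the first to the second was 2.23 to 2.78 in the 5 libraries of over 1000000 reads and 1.22 to 2.50 in the other 7. How the reads of this miRNA were shared between its precursors is not given in the sources used here, so the split is uncertain.

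**Figure D1:**
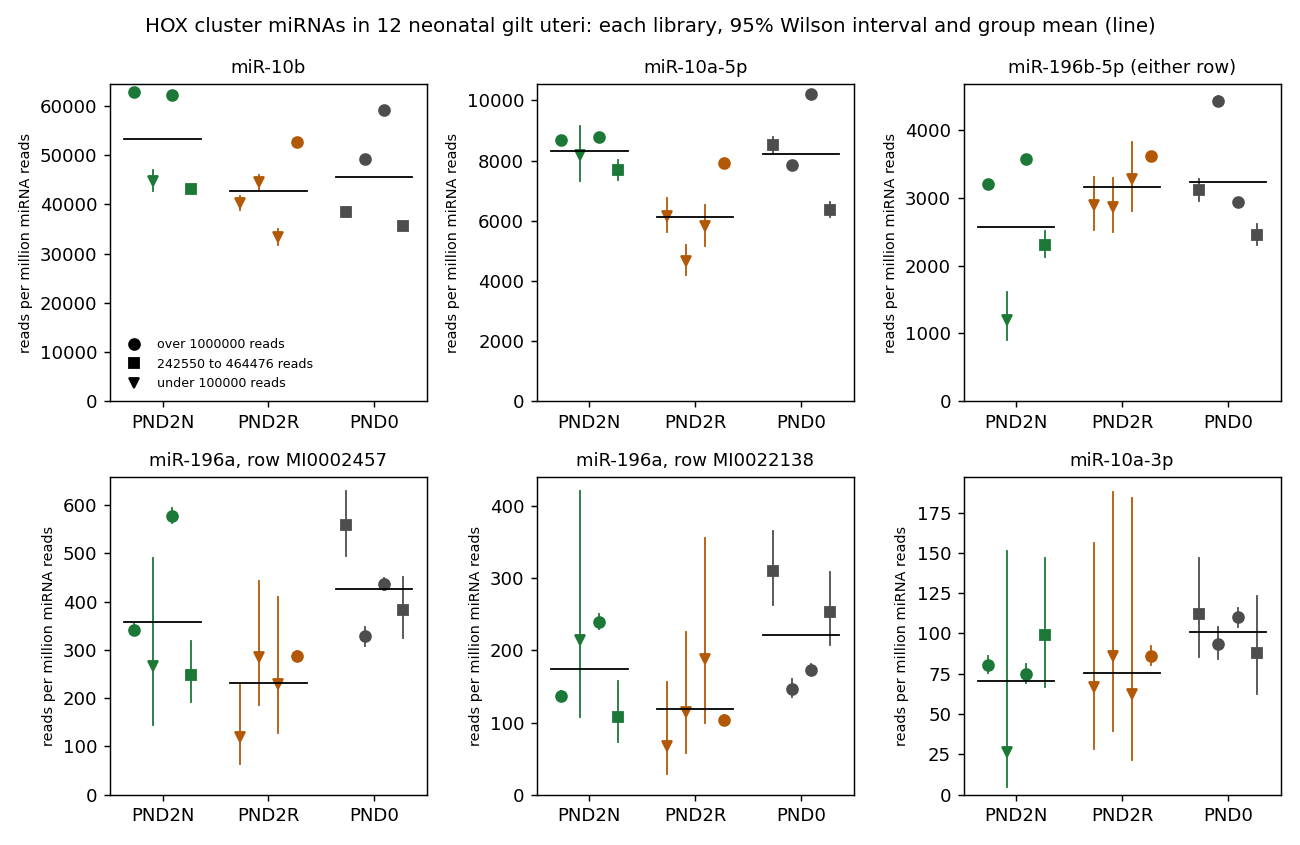
Level in rpm of 6 HOX cluster miRNA rows in each of 12 uterine libraries (y axis, linear from 0), grouped as PND2N, PND2R and PND0 on the x axis. Vertical lines are 95% Wilson intervals, horizontal lines group means and marker shapes depth classes. miR-10b ranged from 33297 to 62816 rpm with all 3 groups overlapping. The widest intervals of miR-196a and miR-10a-3p belong to libraries of under 100000 reads.

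miR-10b and miR-10a-5p, the mature strands from HOXD and HOXB, are given by library. miR-10b stood at 62816, 44845, 62109 and 43076 rpm in PND2N, at 40308, 44503, 33297 and 52608 rpm in PND2R, and at 38476, 49223, 59079 and 35514 rpm in PND0. The high values of every group came from its libraries of over 1000000 reads: the lowest of these 5 was 49223 rpm and the highest of the other 7 was 44845 rpm. Such a split, with all 5 deep libraries on top, was seen in 19 of the 268 rows (7.09%) that were above the table's lowest value in at least 4 libraries, and with all 5 below in 3 (1.12%). Across the 12 libraries the level of miR-10b on the log2 scale had a Pearson r of 0.81 with log10 depth, and miR-10a-5p of 0.70, as a description. The part of depth in the group differences cannot be separated fully, since 3 of the 4 PND2R libraries were shallow.

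**Figure D2:**
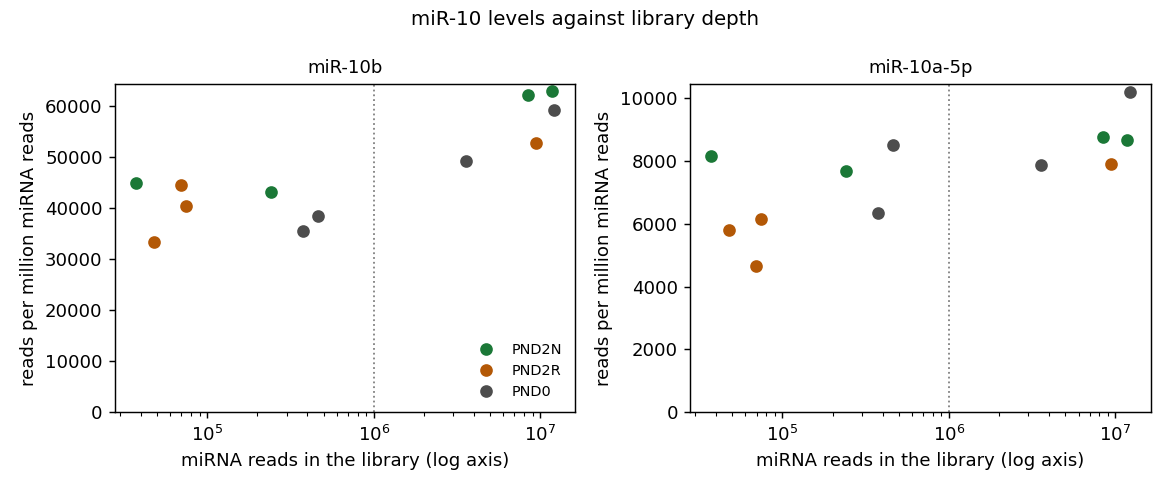
Level of miR-10b (left) and miR-10a-5p (right) in rpm on a linear y axis against the number of miRNA reads in the library on a log x axis, 1 point per library, coloured by group. The dotted line marks 1000000 reads. All 5 libraries to its right have more miR-10b (49223 rpm or more) than the 7 to its left (44845 rpm or less), whereas miR-10a-5p overlaps between the depth classes.

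miR-10a-5p stood at 8689, 8168, 8766 and 7677 rpm in PND2N, at 6163, 4669, 5813 and 7904 rpm in PND2R, and at 8500, 7865, 10194 and 6361 rpm in PND0. The nursed gilts were the most even group, with a highest value 1.14 times the lowest, against 1.69 times in PND2R and 1.60 times in PND0. PND2N lay above PND2R in 15 of 16 pairs of libraries, and only PND2R replicate 4, the deep one, reached into the PND2N range. Within the libraries of under 100000 reads the single PND2N library had 8168 rpm (interval 7306 to 9132), above the 3 PND2R libraries, the highest of which had 6163 rpm (5627 to 6750). Among the deep libraries the gap was smaller, with 8689 and 8766 rpm in PND2N against 7904 rpm in PND2R.

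Levels were tested with limma, a linear model with moderated errors fitted to log2(rpm + 1) of these 268 rows in all 12 libraries at once. P-values were adjusted by the Benjamini-Hochberg method over all 268 rows. Of the 11 rows 9 entered the test, and the 2 rows of miR-196b-3p did not. At an adjusted p under 0.05, 0 of the 9 rows were called in each of the 3 comparisons, as were 0 of all 268 rows (0%). The smallest adjusted p over all rows was 0.576 for PND2N against PND0, 0.367 for PND2R against PND0 and 0.200 for PND2N against PND2R. The 3 comparisons share libraries, so their fold changes are not independent of each other. No member row was called after adjustment, which does not show that levels were alike between groups.

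In nursed against replacer-fed gilts both abundant miR-10 strands had higher means in the nursed group. The log2 fold change of miR-10a-5p was 0.46 ± 0.18 (SE; limma adjusted p = 0.359). That of miR-10b was 0.32 ± 0.21 (adjusted p = 0.542). miR-10a-3p, at 70.3 ± 30.8 rpm in PND2N and 75.3 ± 12.4 rpm in PND2R, had -0.23 ± 0.42 (adjusted p = 0.806), and 0.17 without PND2N replicate 2, where it has 1 read. Without the 4 libraries of under 100000 reads, which leaves 1 PND2R library, miR-10a-5p had 0.08 ± 0.31 and miR-10b 0.07 ± 0.34 (limma adjusted p = 0.999 for both). With a term for depth over 1000000 reads miR-10a-5p had 0.39 ± 0.14 (limma adjusted p = 0.160) and miR-10b 0.19 ± 0.12 (0.361), and in the 5 deep libraries alone 0.14 ± 0.26 and 0.25 ± 0.24.

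miR-196b-5p went the other way in this comparison, without passing. It stood at 3201, 1201, 3574 and 2309 rpm in PND2N and at 2888, 2865, 3271 and 3611 rpm in PND2R, with a log2 fold change of -0.41 ± 0.29 (limma adjusted p = 0.583). The low PND2N value belongs to replicate 2 and rests on 45 reads. Without that library the log2 fold change was -0.08. The replacer-fed group was tight for this miRNA, between 2865 and 3611 rpm, and overlapped the nursed group, whose highest value was 3574 rpm.

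The more abundant row of miR-196a stood at 342, 267, 578 and 247 rpm in PND2N and at 120, 286, 229 and 287 rpm in PND2R, and the groups overlapped. The PND2R values of replicates 1 to 3 rest on 9, 20 and 11 reads, with intervals as wide as 63.3 to 229 rpm for the first. The log2 fold change was 0.63 ± 0.34 (limma adjusted p = 0.457), and that of the other row 0.58 ± 0.39 (adjusted p = 0.549). miR-615 averaged 16.5 ± 7.68 rpm in PND2N and 10.4 ± 9.07 rpm in PND2R. In PND2R replicate 1 it had 0 reads, for which a limit of 3 reads is 40.1 rpm, and it had 1 read in each of the other 3 libraries of under 100000 reads. Its PND0 mean was 17.3 ± 12.4 rpm, and the groups overlapped. Of the 9 rows 6 lay above 0 for PND2N over PND2R, against 39.2% of all rows, with a median log2 fold change of 0.46 against -0.17. With 1 row per name, 4 of 6 lay above 0 and the median was 0.39. Without PND2N replicate 2 the median of all rows was 0.06, and the median of the members in that fit is not given here. At an unadjusted p under 0.05 stood 1 of the 9 rows, miR-10a-5p, against 9.70% of all rows, and 0 had groups that did not overlap, against 0.746% of all rows with PND2N higher and 5.22% with PND2N lower.

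Against newborns, the replacer-fed gilts had lower mean levels of miR-196a, of both miR-10a arms and of miR-615, none of which passed the test. The more abundant miR-196a row stood at 231 ± 78.5 rpm in PND2R and 426 ± 98.2 rpm in PND0. Its PND0 values were 558, 328, 437 and 383 rpm, all above the highest PND2R value of 287 rpm. The log2 fold change was -0.93 ± 0.34 (limma adjusted p = 0.367). The other row, at 66.8, 115, 188 and 103 rpm in PND2R and 310, 147, 173 and 253 rpm in PND0, overlapped between groups and had -0.93 ± 0.39 (limma adjusted p = 0.367). miR-10a-5p had -0.43 ± 0.18 (limma adjusted p = 0.367), with PND2R above PND0 in 2 of 16 pairs.

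The differences of miR-10a-5p and the more abundant miR-196a row were smaller without the shallow libraries. Leaving out those of under 100000 reads, miR-10a-5p had -0.04 ± 0.30 and the more abundant miR-196a row -0.54 ± 0.44 for PND2R over PND0, while the other miR-196a row had -1.03 ± 0.50 (limma adjusted p = 0.987 for each). In the 5 deep libraries alone, the values were -0.18 ± 0.26, -0.40 ± 0.41 and -0.62 ± 0.42 in that order. The deep PND2R library had 287 rpm of the more abundant row, against 328 and 437 rpm in the deep PND0 libraries.

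miR-10a-3p was likewise lower in every PND2R library than in every PND0 library, at 66.8, 85.9, 62.5 and 86.0 rpm in PND2R against 112, 93.5, 110 and 87.8 rpm in PND0. The gap between 86.0 and 87.8 rpm is within counting error, and PND2R replicates 1 to 3 rest on 5, 6 and 3 reads. Its log2 fold change was -0.42 ± 0.42 (limma adjusted p = 0.813). Thus 2 of the 9 rows had groups that did not overlap with PND2R lower, against 4.48% of all rows, and 0 with PND2R higher, against 2.99%. At an unadjusted p under 0.05 stood 3 of the 9 rows, which are 2 names, against 10.1% of all rows.

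miR-10b and miR-196b-5p were close in these groups. miR-10b had -0.08 ± 0.21 (95% interval -0.53 to 0.36) and miR-196b-5p 0.00 ± 0.29 (-0.63 to 0.62). The PND0 values of miR-196b-5p were 3107, 4428, 2934 and 2453 rpm. These intervals do not show that the levels were alike. For all 9 rows the fold change was at or below 0 and the median -0.43, also with 1 row per name, against 37.3% of all rows above 0 and a median of -0.13. The 2 arms of the endothelial miR-126 summed to 9711 to 11944 rpm in PND2R and 12217 to 15349 rpm in PND0, without overlap. Both of its rows were measured and neither passed. The smooth muscle list (4 names) did not overlap, with sums of 180983 to 209535 rpm in PND2R and 94917 to 177831 rpm in PND0. Of its 4 rows 3 lay above 0 and 1 below. The leukocyte list (3 names) had 120 to 172 rpm in PND2R and 90.5 to 115 rpm in PND0, with 2 rows above 0 and 1 below. In PND2R replicates 1 to 3 a single read is worth 13.4 to 20.8 rpm, more than the gap between 115 and 120 rpm. Among all single rows 2.99% did not overlap with PND2R higher and 4.48% with PND2R lower. How often sums of such lists do so was not counted. The mesenchyme, epithelium, red cell and striated muscle lists overlapped between these groups. The part of any of these cell types in the values of the HOX cluster miRNAs was not tested.

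**Figure D3:**
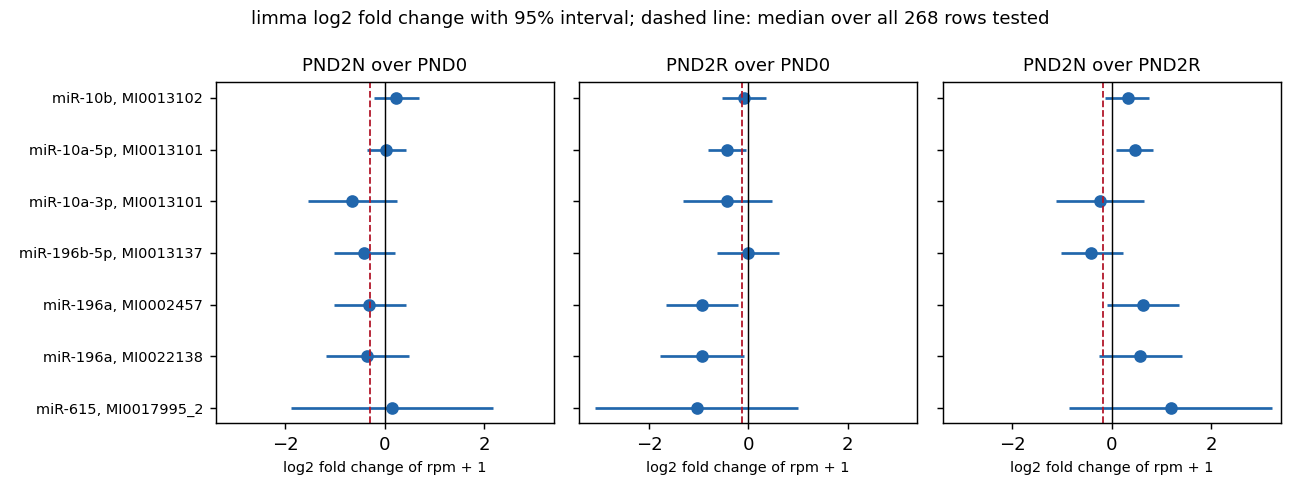
limma log2 fold changes of rpm + 1 (x axis) with 95% intervals for 7 HOX cluster miRNA rows (y axis) in the 3 comparisons, 12 libraries in 1 fit. The solid line is 0 and the dashed line the median of all 268 rows. Unadjusted intervals leave out 0 for miR-10a-5p (-0.81 to -0.05) and the miR-196a rows (-1.66 to -0.21 and -1.77 to -0.09) in PND2R over PND0, and for miR-10a-5p in PND2N over PND2R (0.08 to 0.84), but no adjusted p was under 0.05.

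Between nursed gilts and newborns the HOX cluster miRNAs differed least in miR-10a-5p, with 8325 ± 507 rpm in PND2N and 8230 ± 1587 rpm in PND0. The log2 fold change was 0.03 ± 0.18 with an interval of -0.35 to 0.42 (limma adjusted p = 0.941). miR-10b had 0.23 ± 0.21 (adjusted p = 0.813) and PND2N lay above PND0 in 12 of 16 pairs. In the deep libraries miR-10b stood at 62816 and 62109 rpm in PND2N and at 49223 and 59079 rpm in PND0.

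The miR-196 strands were lower on average in nursed gilts, with overlapping groups. miR-196b-5p averaged 2571 ± 1056 rpm in PND2N and 3230 ± 845 rpm in PND0, and the more abundant miR-196a row 359 ± 152 rpm and 426 ± 98.2 rpm. Their log2 fold changes were -0.41 ± 0.29 (limma adjusted p = 0.644) and -0.31 ± 0.34 (adjusted p = 0.820). Without PND2N replicate 2, with its 45 reads of miR-196b-5p, miR-196b-5p had -0.08. In the deep libraries alone miR-196b-5p had -0.09 ± 0.26, and the miR-196a row had 0.23 ± 0.33, the other sign. miR-10a-3p had -0.65 ± 0.42 (limma adjusted p = 0.644), with 1 read behind the PND2N replicate 2 value of 26.7 rpm, and -0.25 without that library. Of the 9 rows 4 lay above 0, against 23.9% of all rows, and the median was -0.31 against -0.29. With 1 row per name, 3 of 6 lay above 0 and the median was -0.14. Without PND2N replicate 2 the median of all rows was -0.11, and the median of the members in that fit is not given here. At an unadjusted p under 0.05 stood 0 of the 9 rows, against 8.21% of all rows, and 0 had groups that did not overlap, against 0.746% of all rows with PND2N higher and 2.99% with PND2N lower.

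miR-196b-3p, the less abundant arm of miR-196b, was above the lowest value in PND0 replicates 1, 3 and 4 with 2, 14 and 1 reads. It was at the lowest value in all PND2 libraries. That lowest value can hide up to 12 reads (1.02 rpm) in PND2N replicate 1 and up to 8 in PND2N replicate 3 and PND2R replicate 4, and the 14 reads of PND0 replicate 3 are 1.15 rpm. No difference between groups was detectable at this depth.

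Ratios of members within a library do not depend on how libraries are scaled and are given as a description. miR-10b exceeded miR-10a-5p 4.53 to 9.53 times, with means of 6.35 ± 0.931 in PND2N, 7.11 ± 1.66 in PND2R and 5.54 ± 0.733 in PND0. The highest ratio was in PND2R replicate 2, and the groups overlapped. miR-196b-5p exceeded the more abundant miR-196a row 9.35, 4.50, 6.19 and 9.33 times in PND2N, 24.0, 10, 14.3 and 12.6 times in PND2R, and 5.57, 13.5, 6.72 and 6.40 times in PND0. All 4 PND2R ratios lay above all 4 PND2N ratios, and 3 of them rest on the 9 to 20 miR-196a reads of shallow libraries. PND0 replicate 2, with 13.5, was above PND2R replicates 2 and 4.

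Set against each other, with each name counted once, miR-10 exceeded miR-196 by 20.2, 36.1, 17.1 and 19.9 times in PND2N, by 15.5, 15.6, 11.2 and 15.5 times in PND2R, and by 12.8, 12, 20.6 and 14.8 times in PND0. PND2N and PND2R did not overlap in this ratio, whereas PND0 replicate 3 reached into the PND2N range. How often ratios of other rows separate these groups was not counted. The highest PND2N value rests on the 45 miR-196b-5p reads of replicate 2. In the deep libraries the ratio was 20.2 and 17.1 in PND2N, 15.5 in PND2R, and 12 and 20.6 in PND0. For each read of miR-10a-3p there were 77.6 to 306 reads of miR-10a-5p in PND2N, where the highest rests on 1 read of miR-10a-3p, 54.3 to 93.0 in PND2R and 72.5 to 92.8 in PND0.

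**Figure D4:**
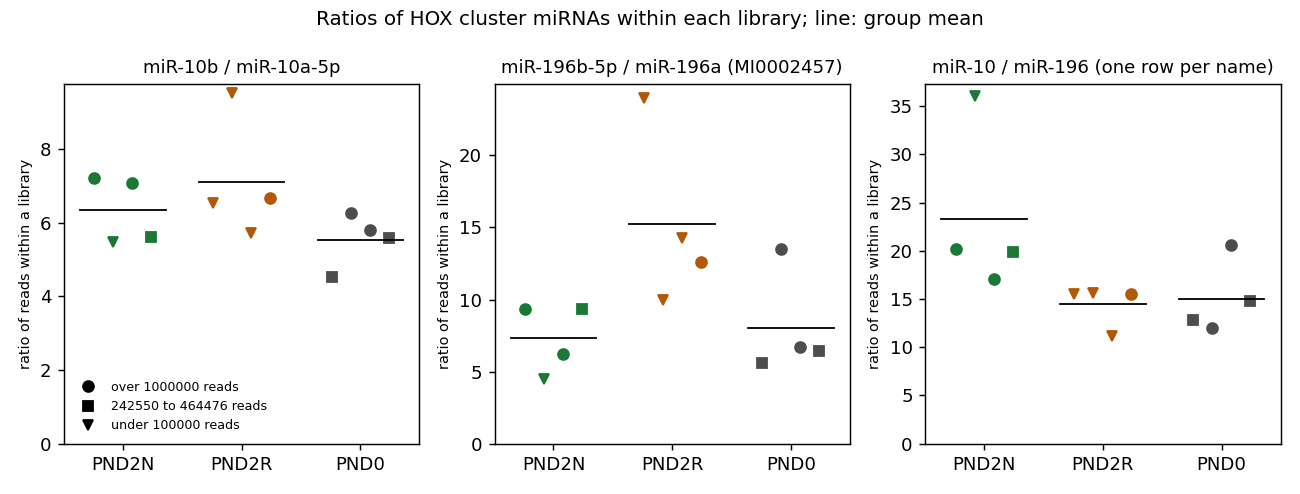
Ratio of reads within each library (y axis, linear from 0) for miR-10b over miR-10a-5p, miR-196b-5p over the more abundant miR-196a row, and miR-10 over miR-196 with each name counted once, by group on the x axis. Horizontal lines are group means and marker shapes depth classes. In the middle panel PND2R (10 to 24.0) lies above PND2N (4.50 to 9.35), and in the right panel PND2N (17.1 to 36.1) lies above PND2R (11.2 to 15.6). The ratios were not tested.

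The miRNAs whose levels over the 12 libraries were most like those of each member were taken from 132 other rows with a mean of at least 100 rpm, by Pearson r of log2(rpm + 1). Libraries share depth effects, so these are descriptions. Nearest to miR-10b were let-7i (r = 0.83), miR-7 (0.82) and miR-146b (0.79), and over the 8 libraries of more than 200000 reads their r was 0.89, 0.84 and 0.86. Like miR-10b itself, let-7i and miR-146b had a high r with log10 depth, at 0.86 and 0.85. Nearest to miR-10a-5p were miR-185 (0.81), miR-148a-3p (0.73) and miR-532-5p (0.71), with 0.54, 0.60 and 0.20 over the 8 deeper libraries. miR-185 stood at 262 ± 65.9 rpm in PND2N, 195 ± 64.2 in PND2R and 318 ± 44.7 in PND0, so its PND2R mean was also the lowest.

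Nearest to the more abundant miR-196a row were the endothelial miR-126-3p (r = 0.73), the let-7 relative miR-98 (0.70) and miR-148a-5p (0.68), with 0.77, 0.83 and 0.63 over the 8 deeper libraries. For miR-196b-5p they were miR-20a of the miR-17 cluster, miR-107 and miR-148b-3p, each with r = 0.91, and 0.83, 0.80 and 0.87 over the deeper libraries.

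miR-99a, miR-99b and miR-100, which share ancestry with miR-10, and miR-125a and miR-125b, which lie beside them in the genome outside the HOX clusters, were set beside the members. 0 of their 5 rows passed in any of the 3 comparisons, as did 0 of all 268 rows. For PND2N over PND2R 3 rows lay above 0, against 39.2% of all rows, with a median of 0.22 against -0.17. For PND2R over PND0 5 of 5 lay below 0, while 37.3% of all rows lay above 0, with medians of -0.12 and -0.13. For PND2N over PND0 3 of 5 lay above 0, against 23.9% of all rows, with a median of 0.14 against -0.29. miR-99a, the most abundant, stood at 98861 ± 28499 rpm in PND2N, 82939 ± 11460 in PND2R and 89274 ± 24548 in PND0. miR-100 stood at 16516 ± 4766, 12658 ± 652 and 14299 ± 2896 rpm in the same order of groups. Both had the highest mean in PND2N and the lowest in PND2R, as miR-10b had. miR-125b had its lowest mean in nursed gilts, at 26489 ± 3319 rpm in PND2N, 35710 ± 5426 in PND2R and 37822 ± 11640 in PND0.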

How the data were processed

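Total RNA (500 ng per uterus) entered small RNA libraries that were read as single ends of 50 bases, per the labels' protocols. The submitters' processing notes name the Sscrofa10.2 genome and FastQC; no aligner or way of counting is given there. The authors deposited a normalized signal for each row. In every library the values of up to 1000 reads were whole multiples of 1 step within 0.1 of a read (100%), and so were 95.9% or more of those over the lowest value, 1. Values at 1 were taken as 0 reads. Reads were divided by the library's total over all 420 rows, copied rows included. limma 3.58.1 (R 4.3.3; empirical Bayes with trend, 1 coefficient per group, 12 libraries, pseudocount 1 rpm) was run over 268 rows and tested on simulated data; 152 rows were left out, of which 134 were at the lowest value in every library. Simulated 2-fold changes at 100 rpm or more were called in 68.6% (PND2N against PND0), 64.7% (PND2R against PND0) and 54.9% (PND2N against PND2R). Under 100 rpm these were 0%, 6.12% and 2.04% in that order. The most abundant rows, miR-10b among them, were left unchanged in the simulation. It gave all rows the same spread between libraries and no effect of depth on shares. The percentages hold for that setting only and may be higher than in the real data. Count models were not run, because the deposited signal did not pass as counts. Rows beyond the members were named by rule: the 3 most alike of each member, the related miRNAs and the top row of each of the 7 marker lists. Replicates were numbered in accession order and pair no samples; litters are not given in the labels used here. Members and lists were chosen with earlier results of these data known. Alternatives changed the scale, pseudocount, filter, weights, groups, rows and libraries; those on median-ratio centring and on depth over 1000000 reads were chosen after seeing the data. Figures were drawn with matplotlib 3.10.9.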

Additional observations from a re-analysis of the deposited data

Results flagged for a closer look

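Of 42 groups of 4 values checked (members, shares and ratios in each group), 5 had 1 library whose gap to its nearest neighbour took nearly the whole range of its group, all of them ratios. Chance flags about 1 group in 20, and these ratios share their members. The ratio of miR-196b-5p to miR-196a was 13.5 in PND0 replicate 2, with the other 3 at 5.57 to 6.72. The ratio of miR-10 to miR-196 was 36.1 in PND2N replicate 2 (others 17.1 to 20.2) and 11.2 in PND2R replicate 3 (others 15.5 to 15.6). The ratio of miR-10a-5p to miR-10a-3p was 54.3 in PND2R replicate 2, which has 6 reads of miR-10a-3p (others 91.9 to 93.0). The ratio of the 2 miR-196a rows was 1.25 in PND2N replicate 2, from 10 and 8 reads (others 2.31 to 2.50).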

How the results depend on the processing

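No member row was called in any comparison under any of the 12 other settings or the 12 fits that left out 1 library (0 in each, also without the filter, which brings in the 2 rows of miR-196b-3p). Of the log2 fold changes, 231 kept their sign under the other settings and 15 took the opposite one, none of them of a called row, and the cause was not tested. With the deposited signal in place of shares, miR-10b had -0.14, miR-10a-5p -0.34 and miR-615 -0.20 for PND2N over PND0, and miR-10a-3p 0.03 for PND2N over PND2R. That scale moves the median of all rows to -0.49 for PND2N over PND0, -0.58 for PND2R over PND0 and 0.10 for PND2N over PND2R, against -0.29, -0.13 and -0.17 on shares. In the 5 libraries of over 1000000 reads, PND2N over PND0 was -0.04 for miR-10a-5p and 0.23 and 0.18 for the miR-196a rows, and PND2R over PND0 was 0.00 for miR-196b-5p. Without libraries of under 100000 reads, PND2N over PND0 was -0.11 for miR-615, and PND2R over PND0 was 0.24 for miR-10b and 0.20 for miR-196b-5p. With a depth term PND2R over PND0 was 0.04 for miR-10b and 0.14 for miR-196b-5p, and with median-ratio centring 0.03 for miR-196b-5p. With library weights PND2N over PND2R was 0.03 for miR-10a-3p. Leaving out 1 library turned the sign of 5 values: PND2N over PND0 ranged from -0.08 to 0.14 for miR-10a-5p and from -0.37 to 0.54 for miR-615, PND2R over PND0 from -0.19 to 0.05 for miR-10b and from -0.13 to 0.16 for miR-196b-5p, and PND2N over PND2R from -0.44 to 0.17 for miR-10a-3p. The miR-10 share of PND2R was 6.06% and its miR-196 share 0.761% in its single library of over 100000 reads. With 1 row per name the miR-196 shares were 0.293% in PND2N, 0.339% in PND2R and 0.366% in PND0. Tests with edgeR, DESeq2 and TMM scaling were not run, since the deposited signal did not pass as counts. No paired analysis was possible, since replicates were numbered in accession order and litters are not given in the labels used here. In the 4 libraries of under 100000 reads depth limits miR-196b-3p, with 0 reads, miR-615, with 0 or 1 read, miR-10a-3p, with 1 to 6, and the more abundant miR-196a row, with 9 to 20.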
